A study of Mus musculus with 4 samples.

Results

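The cytosolic heat shock genes described here are 10 genes picked by symbol: Hsf1, Hspa1a, Hspa1b, Hspa8, Hspa4, Hsph1, Dnajb1, Hsp90aa1, Hsp90ab1 and Hspb1. They are 10 of the 49997 genes in each of 4 count tables, and all 10 passed the filter on low counts with at least 371 reads in every library. The libraries were made from poly(A) RNA of cultured mouse C57BL/6J tissue from the aorta-gonad-mesonephros (AGM), the embryonic region in which blood stem cells first arise. Embryos were at E10.5 and E11.5 by the growth protocol, and at E10.5 alone by the design text. All explants were kept for 48 hours on membrane filters between medium and gas, in MyeloCult medium with hydrocortisone. In the untreated group (2 libraries) nothing else was added, and in the CCCP group (2 libraries) the medium held 5 µM CCCP, a protonophore that dissipates the mitochondrial membrane potential. The labels do not say how many embryos made up a library, so p-values measure the spread between these libraries, which may be technical.

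Cytosolic chaperones keep proteins folded, refold damaged ones and pass the rest on for degradation. HSP70 proteins (Hspa8, made constitutively, and the stress-inducible Hspa1a and Hspa1b) bind short unfolded stretches in a cycle that J-domain proteins such as Dnajb1 start and that HSP110 proteins (Hspa4, Hsph1) help to reset. HSP90 proteins (Hsp90aa1, more inducible, and Hsp90ab1, more constitutive) hold near-native clients such as kinases and steroid receptors. Hspb1 is a small heat shock protein that holds unfolding proteins without using ATP. Hsf1 is the transcription factor that, when unfolded proteins draw chaperones away from it, binds inverted repeats of GAA in the promoters of these genes.

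For 6 of the 10 genes (Hspa1a, Hspa1b, Hspa4, Hsph1, Dnajb1 and Hspb1) RefSeq start regions of mouse build GRCm38.p6 were at hand, each running from 250 bases before to 50 bases after a start site. These 3 are shown because they carry matches to the heat shock element and belong to the member with the largest difference below, to the steadiest member and to an inducible HSP70 gene. Capitals mark every match to GAANNTTC or TTCNNGAA, an inverted pair of GAA units (each reads the same on both strands).
Hspb1 (chr5:135887669-135887968, plus strand): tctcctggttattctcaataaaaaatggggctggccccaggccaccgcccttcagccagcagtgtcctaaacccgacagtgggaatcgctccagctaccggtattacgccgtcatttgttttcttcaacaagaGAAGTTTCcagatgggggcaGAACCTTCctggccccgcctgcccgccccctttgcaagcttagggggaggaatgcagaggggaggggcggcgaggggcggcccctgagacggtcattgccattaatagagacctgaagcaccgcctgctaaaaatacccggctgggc
Hsph1 (chr5:149636287-149636586, minus strand): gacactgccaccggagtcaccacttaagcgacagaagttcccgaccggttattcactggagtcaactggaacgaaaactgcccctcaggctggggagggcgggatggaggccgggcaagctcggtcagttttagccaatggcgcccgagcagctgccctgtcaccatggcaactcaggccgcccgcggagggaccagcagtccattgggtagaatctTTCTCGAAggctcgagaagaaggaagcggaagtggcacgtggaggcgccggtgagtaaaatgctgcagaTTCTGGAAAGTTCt
Hspa1a (chr17:34972107-34972406, minus strand): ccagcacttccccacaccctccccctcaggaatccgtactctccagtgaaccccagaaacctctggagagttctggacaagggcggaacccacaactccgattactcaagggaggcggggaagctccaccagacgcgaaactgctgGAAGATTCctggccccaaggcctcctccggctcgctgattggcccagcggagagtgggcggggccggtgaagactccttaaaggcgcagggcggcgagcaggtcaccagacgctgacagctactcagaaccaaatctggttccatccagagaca

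In the Hspb1 window the pairs begin at positions -117 and -97 from the start site. Hsph1 holds a pair at -33 and, from position 37 on, a run of 3 units that matches TTCNNGAANNTTC, which contains a further 2 overlapping pairs. In Hspa1a the match begins at -104, and the Hspa1b window is identical to it in 296 of 300 bases, with the same match at the same place. Neither the Hspa4 window nor either of the Dnajb1 windows held a match. An inverted pair was found in windows of 4 of the 6 genes, against 16.97% of the 27025 genes with a window of this length, and the run of 3 units (GAANNTTCNNGAA or TTCNNGAANNTTC, both strands) in 1 of 6, against 0.66% of genes. The nearly identical Hspa1a and Hspa1b windows both count among the 4 genes with an inverted pair. All these matches describe the letters of the windows and show no binding.

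Library totals were 48216849 and 37360968 counted reads in untreated replicates 1 and 2, and 48827826 and 37579087 in CCCP replicates 1 and 2. The 10 genes took 0.59% and 0.74% of these reads untreated and 0.71% and 0.78% with CCCP. By level per length, in RPKM (reads per kilobase of exon, at a common scaled library size), Hsp90ab1 came first in every library (1283 to 1919), then Hspa8 (592 to 989), Hsp90aa1 (169 to 239) and Hspa4 (74.1 to 89.6), with no overlap between neighbours. Hsph1 (35.4 to 37.8), Hspb1 (18.1 to 42.6) and Dnajb1 (19.3 to 23.0) followed, and in this stretch the range of Hspb1 overlapped those of both its neighbours. Hsf1 stood just below Dnajb1, at 17.02 to 19.28, and its range overlapped that of Hspb1. The inducible HSP70 genes were last, Hspa1b at 4.10 to 5.48 RPKM and Hspa1a at 3.54 to 4.92 RPKM, ranges that overlap.

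**Figure D1:**
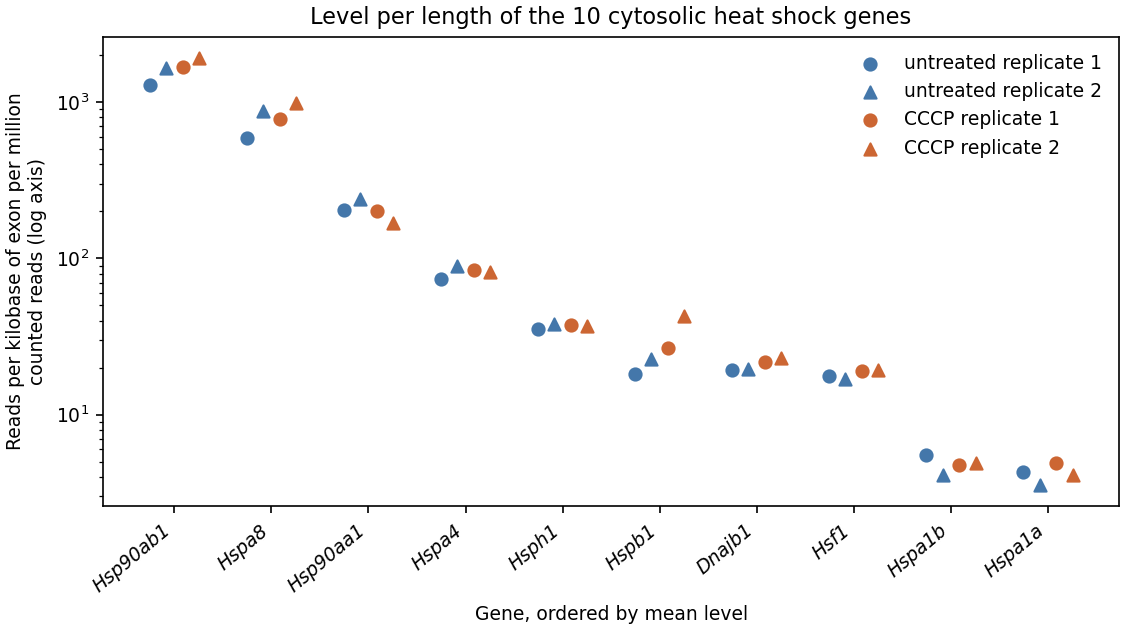
Level per length of each gene in each library, in RPKM on a log axis; circles are replicate 1 and triangles replicate 2 of the untreated (blue) and CCCP (orange) libraries. Within a gene the 4 points lie close together next to the full span of levels over the genes. Ranges overlap between Hspb1 and each of Hsph1, Dnajb1 and Hsf1, and between Hspa1a and Hspa1b. Hspb1 has the widest spread on this axis (18.1 to 42.6).

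Reads shared between genes limit these levels. Of the 50-base windows of the longest coding transcript, 66.3% in Hspa1a, 62.3% in Hspa1b, 74.8% in Hspa8, 58.5% in Hsp90aa1 and 51.6% in Hspb1 also occur in transcripts of another gene, mostly the sister gene for the first pair and pseudogenes for the others. The share was 4.5% in Hsp90ab1, 0.4% in Dnajb1 and 0 in Hsf1, Hspa4 and Hsph1. Reads that fit several places were left out of the counting, so the levels of the first 5 genes are uncertain. When length was scaled to the windows found in no other gene, Hspa8 (2350 to 3925) stood above Hsp90ab1 (1344 to 2009), and Hspa1b (10.9 to 14.5) and Hspa1a (10.51 to 14.6) were still the lowest. The annotation also places Hspa1a and Hspa1b on 3 alternate contigs besides chromosome 17. Their lengths in the files, 11156 and 11208 bases, add up all 4 placements, so the lengths on chromosome 17 alone (2798 and 2810 bases) were used here. Scaling to unshared windows does not allow for reads lost between these placements of the same gene, so the low level of both genes stays uncertain.

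By edgeR's quasi-likelihood test, 0 of the 10 genes passed an adjusted p-value of 0.05 for CCCP against no treatment, where 0% of the 19837 genes tested were called. DESeq2 also called 0 of the 10, against 3.32% of the 17914 genes to which it gave an adjusted p-value. At an unadjusted p under 0.05, edgeR had 1 of the 10 higher in CCCP (Hspb1, background 5.45%) and 0 lower (background 9.16%). The CCCP pair lay wholly above the untreated pair for Hsf1, Dnajb1, Hsp90ab1 and Hspb1 (4 of 10, background 24%) and below them for Hsp90aa1 (1 of 10, background 24.8%). These 5 of 10 are near the 48.8% of all genes tested whose groups do not overlap. The median log2 fold change of the 10 was 0.17, that of all genes tested was -0.01, and 9 of the 10 had a positive value, as 49.2% of all genes did. Under total-count scaling 6 of the 10 were positive, and 7 of the 10 with the GC trend removed. The 95% intervals of 9 genes held 0 and had an upper end under 2-fold, the highest among these 9 being 1.8-fold (Hspa8), while the interval of Hspb1 ran from 1.1- to 2.61-fold before any adjustment.

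**Figure D2:**
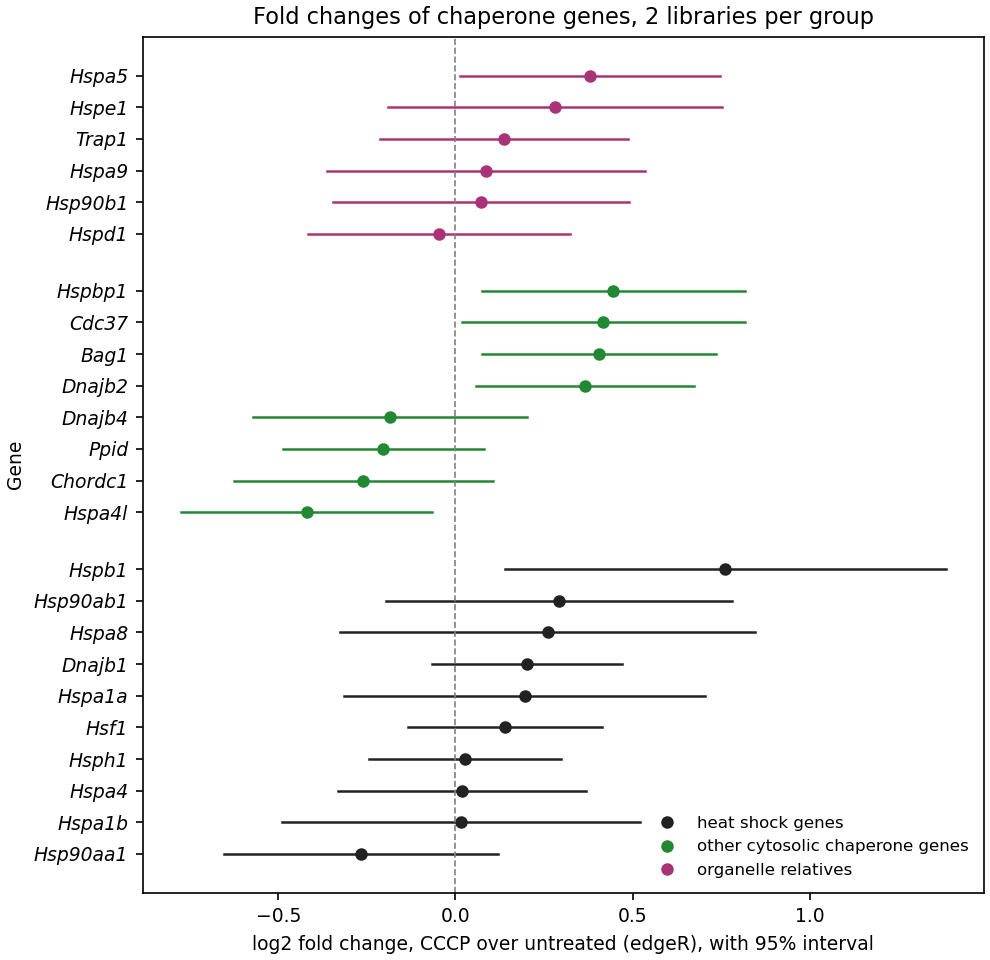
Log2 fold change (CCCP over untreated, edgeR) with its 95% interval, not adjusted for multiple tests, for the 10 heat shock genes (black), 8 other cytosolic chaperone genes (green) and 6 relatives in the endoplasmic reticulum and mitochondria (purple). Among the heat shock genes only the interval of Hspb1 lies wholly above 0, and Hsp90aa1 has the lowest estimate (-0.27).

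Hsf1 (chromosome 15, 76477362 to 76501155, coordinates here and below being those of mm10 in the files), the regulator of the group, had 46.5 and 44.7 CPM (read counts at a common scaled library size) without treatment and 49.9 and 50.6 CPM with it. Both CCCP libraries were higher, by little. The estimate was a log2 fold change of 0.14 (standard error 0.11, edgeR adjusted p-value 0.58), and with the GC trend removed it turned to -0.0117. Heat shock factor activity is set largely by the protein's state, which transcript counts do not measure.

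Among the HSP70 genes, Hspa8 (chromosome 9, 40801276 to 40805202) had 1246 and 1856 CPM untreated and 1634 and 2081 CPM with CCCP. The groups overlapped, since untreated replicate 2 exceeded CCCP replicate 1. The log2 fold change of 0.26 (standard error 0.24, edgeR adjusted p-value 0.63) came to 0.01 without untreated replicate 1, to 0.61 without replicate 2 of that group, 0.08 without CCCP replicate 2 and 0.43 without CCCP replicate 1. The size of the difference thus depended on which library was left out.

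The inducible sisters Hspa1a (chromosome 17, 34969359 to 34972156) and Hspa1b (chromosome 17, 34956429 to 34959238) were both counted at a low level. Hspa1a had 12.1 and 9.91 CPM untreated and 13.8 and 11.4 CPM with CCCP, from 371 to 668 reads a library. For Hspa1b the values were 15.4 and 11.52 CPM untreated and 13.4 and 13.8 CPM with CCCP. Groups overlapped for both genes, and untreated replicate 2 was the lowest library in each. The log2 fold changes were 0.20 (95% interval -0.31 to 0.71) and 0.02 (-0.49 to 0.52), with edgeR adjusted p-values of 0.68 and 0.98. Hspa1a came to 0.06 without CCCP replicate 1, 0.09 without untreated replicate 2, 0.33 and 0.36 without CCCP replicate 2 or untreated replicate 1, and 0.03 with the GC trend removed. Leaving out untreated replicate 2 gave -0.15 for Hspa1b, leaving out untreated replicate 1 gave 0.25, and the value was -0.05 without library scaling. Summed, the sisters made up 1.63% and 0.859% of the HSP70 level per length (with Hspa8) untreated and 1.23% and 0.902% with CCCP, so the groups overlapped here as well.

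The HSP110 genes had estimates close to 0. Hsph1 (chromosome 5, 149616843 to 149636498) had 134 and 143 CPM untreated and 142 and 140 CPM with CCCP, a ratio of 1.07 between its highest and lowest library, the smallest among the 10 genes. Its log2 fold change of 0.03 had a 95% interval of -0.24 to 0.30 and an edgeR adjusted p-value of 0.93. The start region of Hsph1 is the one printed above with a run of 3 units, and whether that run bears on its level was not tested. Hspa4 (chromosome 11, 53259814 to 53300479) had 344 and 416 CPM untreated and 389 and 380 CPM with CCCP, the CCCP libraries falling between the untreated ones. For Hspa4 the log2 fold change was 0.02 (95% interval -0.33 to 0.37, edgeR adjusted p-value 0.96). Both signs turned under total-count scaling, to -0.03 for Hsph1 and -0.04 for Hspa4, and without untreated replicate 1, to -0.01 and -0.10. With the GC trend removed they came to 0.11 for Hsph1 and 0.22 for Hspa4. Dnajb1 (chromosome 8, 83608175 to 83612653), the J-domain partner of HSP70, had 62.3 and 63.1 CPM untreated and 70.02 and 74.2 CPM with CCCP. Its groups did not overlap, and the log2 fold change was 0.20 (standard error 0.11, edgeR adjusted p-value 0.44).

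The HSP90 genes had estimates of opposite sign. Hsp90ab1 (chromosome 17, 45567778 to 45573261), the member with the highest CPM in every library, had 3217 and 4142 CPM untreated and 4202 and 4811 CPM with CCCP. The lower CCCP library lay just above the higher untreated one. Hsp90aa1 (chromosome 12, 110691036 to 110696395) had 583 and 682 CPM untreated and 571 and 481 CPM with CCCP, again without overlap but with CCCP below. The log2 fold changes were 0.29 (standard error 0.20) and -0.27 (standard error 0.16), with edgeR adjusted p-values of 0.52 and 0.47. Without untreated replicate 2 they were 0.52 and -0.12, without untreated replicate 1 0.13 and -0.36. With the GC trend removed they were 0.22 and -0.18, and with the length trend removed 0.21 and -0.33. Leaving out CCCP replicate 2 gave -0.14 for Hsp90aa1 and leaving out CCCP replicate 1 gave -0.39; neither gene changed sign under any of the 14 alternatives run.

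Within each library, as a share that no library scaling can move, Hsp90aa1 made up 13.7% and 12.7% of the HSP90 pair per length untreated and 10.7% and 8.08% with CCCP. The mean share was 13.2% ± 0.771 untreated and 9.38% ± 1.84 with CCCP (SD, n = 2 each), and the log2 ratio of Hsp90aa1 to Hsp90ab1 differed by -0.57, CCCP minus untreated. The 4 libraries did not overlap by group, and the difference was larger than either SD. An exact two-sided permutation test gave p = 0.3333, the smallest value that 2 libraries against 2 can give. Without CCCP replicate 2 the log2 ratio differed by -0.35 and the share by -2.52 percentage points, against -3.82 points with all libraries, and without CCCP replicate 1 by -0.79 and -5.12 points. When length was scaled to the unshared windows the shares were 26.8% and 25% untreated and 21.6% and 16.8% with CCCP, with the same difference in log2 ratio. The share was not recomputed with the GC or length trend removed, and Hsp90aa1 and Hsp90ab1 differ in GC content (47.0% and 51.9%). This ratio was singled out after the members' values were seen.

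**Figure D3:**
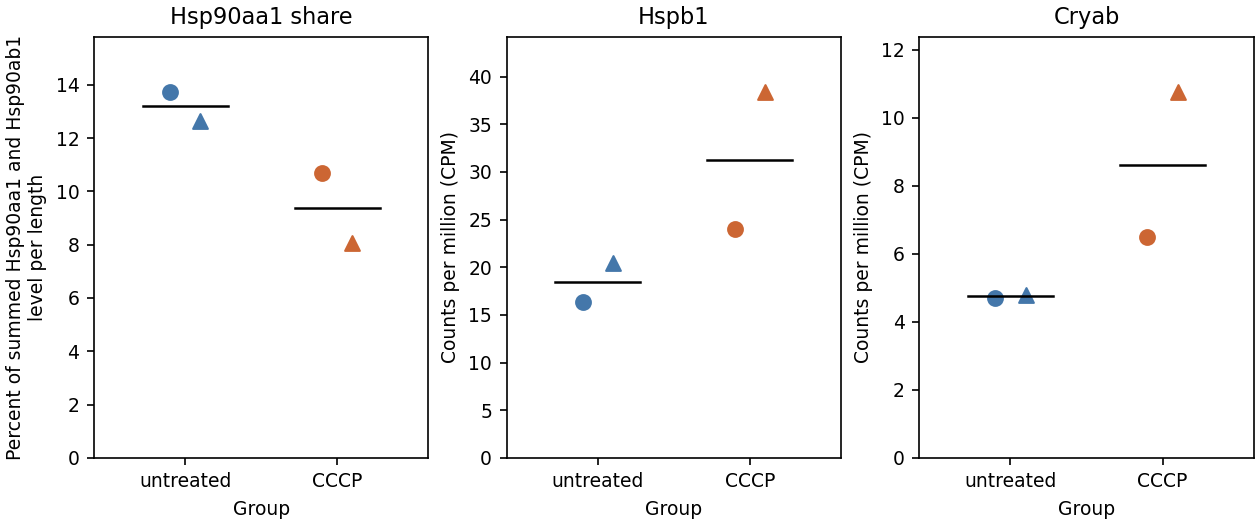
Share of Hsp90aa1 in the summed level per length of Hsp90aa1 and Hsp90ab1 (left), and CPM of Hspb1 (middle) and of Cryab (right), in each library; circles are replicate 1, triangles replicate 2 and black lines group means, all axes starting at 0. The CCCP points (orange) lie below the untreated points (blue) for the share and above them for both small heat shock genes, with CCCP replicate 2 farthest away each time.

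Hspb1 (chromosome 5, 135887919 to 135889563), the small heat shock protein also known as HSP25, had the largest difference of the 10. Untreated libraries had 16.3 and 20.5 CPM, those with CCCP 24.05 and 38.4 CPM, on 767 to 1395 reads. Both CCCP libraries were higher, but they differed more from each other than CCCP replicate 1 did from untreated replicate 2. Its log2 fold change came to 0.76, standard error 0.26 (means of 18.4 ± 2.93 and 31.2 ± 10.2 CPM, SD, n = 2), and the gene did not pass in edgeR, at an adjusted p-value of 0.29, or in DESeq2, at 0.11. Without CCCP replicate 2 the log2 fold change was 0.39, and without CCCP replicate 1 it was 1.07. Across all genes tested, fold changes went with exon length (Spearman's rho -0.361) and GC content (rho 0.369), both across genes, which are not replicates. Hspb1 has short exons (903 bases) and a GC content of 61.2%; with the length trend removed its log2 fold change was 0.55, and with the GC trend removed it was 0.59. In edgeR without a filter on low counts it passed, at an adjusted p-value of 0.0051, in a fit that called 3.43% of 32261 genes. It was also the 1 member of 10 that passed in edgeR with a block for replicate number (10.7% of all genes called), and with that block after removing the length trend (7.87%) or the GC trend (5.78%).

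By distance between centred log2 CPM profiles over the 4 libraries, the 5 genes most like Hspb1 among 10785 genes with a mean of at least 10 CPM were Sfn, Alas2, Cldn4, Lsm10 and Wnt6. Sfn, the epithelial 14-3-3 sigma protein, was the nearest, at a distance of 0.132 with 28.1 and 32.1 CPM untreated and 36.7 and 59.6 CPM with CCCP. Alas2, the erythroid enzyme that starts haem synthesis, had 39.4 and 46.5 CPM untreated and 51.8 and 78.8 CPM with CCCP. Cldn4, a tight junction protein of epithelia, had 34.6 and 44.3 CPM against 46.9 and 70.0 CPM, and Wnt6, a secreted Wnt ligand, had 26.5 and 30.4 CPM against 43.4 and 58.6 CPM. Lsm10, part of the small RNA particle that trims histone messages, lay farther down at 7.37 and 10.2 CPM against 10.6 and 15.6 CPM. All 5 were lowest in untreated replicate 1 and highest in CCCP replicate 2, as Hspb1 was, which follows from how they were picked. In edgeR with the filter on low counts and no block 0 of the 5 passed (Wnt6 lowest, at an adjusted p-value of 0.186), while Wnt6 passed in DESeq2 at 0.00764. Without that filter edgeR called 4 of them, Sfn at an adjusted p-value of 0.00424, Alas2 at 0.00651, Cldn4 at 0.0173 and Wnt6 at 9.85e-05. That fit called 3.43% of all genes. The same 4 passed with the replicate block, where 10.7% of all genes were called. As the 5 were picked for the profile of Hspb1, which passed in both fits, these calls are no separate evidence. Without CCCP replicate 2 the log2 fold changes of Sfn, Alas2, Cldn4 and Lsm10 were 0.26 to 0.30, against 0.57 to 0.68 with all libraries. Wnt6, at 0.84 with all libraries, stayed between 0.62 and 1.05 over the 14 alternatives, that one among them. The likeness rests on 4 libraries.

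Other cytosolic chaperone genes, a list of 55 that work beside the members, were all tested. In edgeR 0 passed, as in DESeq2; at an unadjusted p under 0.05, 5 were higher (Dnajb2, Bag1, Hspbp1, Cdc37 and Cryab, background 5.45%) and 1 lower (Hspa4l, background 9.16%). The CCCP libraries lay above the untreated ones for 25 genes and below them for 7, or 58.2% of the list together, beside the 48.8% of all genes. The median log2 fold change was 0.20, and 44 of the 55 had a positive value, as 49.2% of all genes tested did. The median was 0.08 (36 of 55 positive) without untreated replicate 1 and 0.09 (38 of 55) with the length trend removed, and under total-count scaling 39 of 55 were positive.

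Of the subgroups, the cytosolic chaperonin and prefoldin genes, which fold actin and tubulin, had positive values in 13 of 14 and a median of 0.22. Of all genes tested, 49.2% had positive values. Groups did not overlap for 35.7% of these chaperonin and prefoldin genes, beside 48.8% of all genes and 57.1% to 75% in the other subgroups. Their summed CPM was 2817 and 3777 untreated and 3549 and 3891 with CCCP, so the groups overlapped. The BAG proteins and exchange factors, which release clients from HSP70, had 6 of 7 positive and a median of 0.21. HSP90 co-chaperones had 10 of 12 positive with a median of 0.16, J-domain genes 6 of 8 with 0.13, and small heat shock genes 6 of 7 with 0.27. Negative medians were found only for the heat shock factor genes and the HSP70 relatives. Hsf2, Hsf4 and Hsbp1, that is 2 further heat shock factors and a factor-binding protein, had a median of -0.17, with Hsbp1 positive at 0.24. HSP70 relatives had a median of -0.16, with 2 of 4 positive and values from -0.42 to 0.47.

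**Figure D4:**
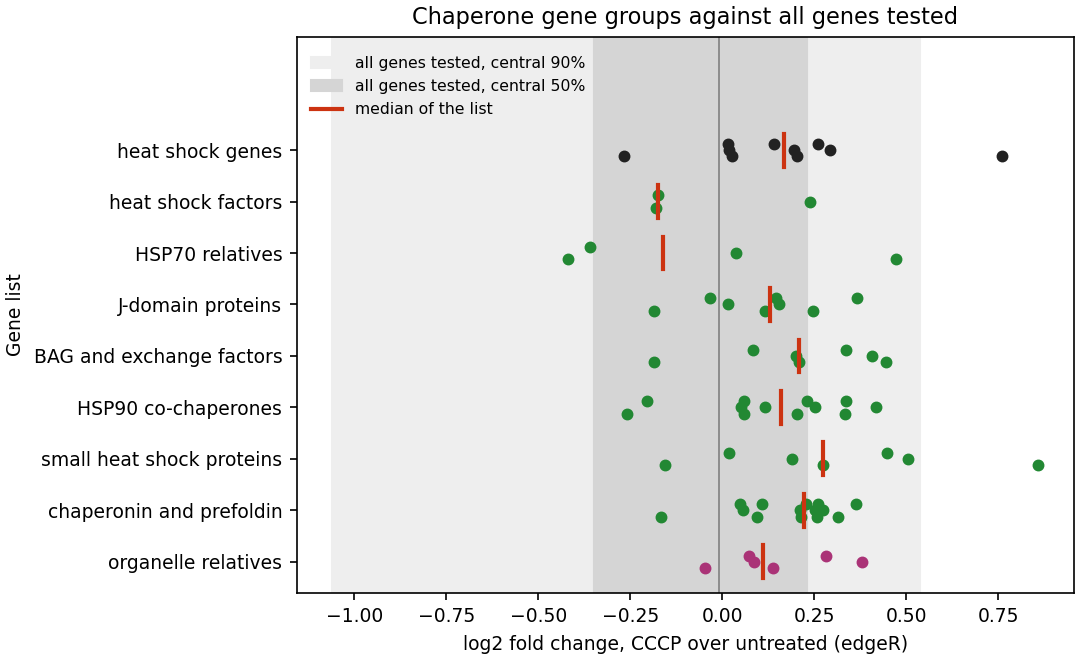
Log2 fold change of every gene in the heat shock set (black), in 7 subgroups of other cytosolic chaperone genes (green) and in the organelle relatives (purple); red bars are medians, and grey bands hold the central 50% and 90% of all 19837 genes tested. Most points lie inside the bands, with Hspb1 (0.76) and Cryab (0.86) farthest to the right.

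The named genes of that list show both directions. Hspbp1, an exchange factor of HSP70, had 32.4 and 41.6 CPM untreated and 50.03 and 50.7 CPM with CCCP (log2 fold change 0.45). Cdc37, which brings kinases to HSP90, had 175 and 228 CPM against 254 and 283 CPM (0.42), and Bag1, another exchange factor, had 77.1 and 94.3 CPM against 113 and 114 CPM (0.41). Dnajb2, a J-domain protein, had 34.3 and 31.3 CPM against 43.7 and 40.9 CPM (0.37). These 4 were picked for the largest positive values among genes of the list with a mean of at least 10 CPM. Their groups did not overlap, CCCP being above in each (background 24%), which the picking favours. Without untreated replicate 1 Cdc37 came to 0.25 and Hspbp1 to 0.29, and without untreated replicate 2 Cdc37 came to 0.65. Length trend removal brought Bag1 to 0.25, and GC trend removal brought Dnajb2 to 0.22 and Hspbp1 to 0.29.

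On the negative side, Hspa4l, an HSP110 relative of Hspa4, had 37.9 and 37.2 CPM untreated and 25.4 and 30.7 CPM with CCCP (log2 fold change -0.42). Chordc1, an HSP90 co-chaperone, had 67.8 and 78.5 CPM against 54.8 and 67.4 CPM (-0.26). Ppid, an HSP90-bound cyclophilin, stood at -0.20 and Dnajb4, a J-domain protein, at -0.19. All 4 were picked for the most negative values among genes of the list with a mean of at least 10 CPM. Each had both CCCP libraries below both untreated ones (background 24.8%), which the picking favours too. Chordc1 and Ppid changed sign, to 0.10 and 0.09, with the GC trend removed. Without CCCP replicate 1 Chordc1 came to -0.11 and Dnajb4 to -0.09, and without untreated replicate 2 Chordc1 came to -0.12 and Ppid to -0.10. Hspa4l came to -0.15 with the length trend removed. EdgeR adjusted p-values of these 8 genes ran from 0.283 to 0.608. Cryab, alpha-B crystallin, a small heat shock protein of muscle and lens, is below the level of the naming rule and was chosen after its values were seen: it had 4.71 and 4.78 CPM untreated and 6.49 and 10.8 CPM with CCCP (log2 fold change 0.86, edgeR adjusted p-value 0.3). Without CCCP replicate 2 its value was 0.46.

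Among relatives in other compartments, 0 of 6 passed in edgeR with group as the sole term or in DESeq2. At an unadjusted p under 0.05, edgeR had 1 of the 6 higher (Hspa5, background 5.45%). Hspa5, the HSP70 of the endoplasmic reticulum, had 1091 and 970 CPM untreated and 1398 and 1284 CPM with CCCP (log2 fold change 0.38, edgeR adjusted p-value 0.33). It was the only one of the 6 whose groups did not overlap (16.7%), beside 48.8% of all genes tested. With the block for replicate number (10.7% of all genes called) edgeR called Hspa5 at an adjusted p-value of 0.0487. With the GC trend removed as well (5.78% of all genes called), that value was 0.0377 for Hspa5. Hsp90b1, its HSP90 counterpart, stood at 0.07, the mitochondrial Hspa9, Trap1, Hspd1 and Hspe1 at 0.09, 0.14, -0.05 and 0.28. With the GC trend removed Hsp90b1 came to 0.34, Hspa9 to 0.39 and Trap1 to 0.01, and with the length trend removed Hspe1 came to 0.07. Leaving out untreated replicate 1 gave 0.07 for Hspe1, leaving out untreated replicate 2 gave 0.57, and the signs of Hsp90b1, Hspa9, Trap1 and Hspd1 each turned without some library. Whether the cytosolic and organelle genes differ from each other was not tested.

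**Figure D5:**
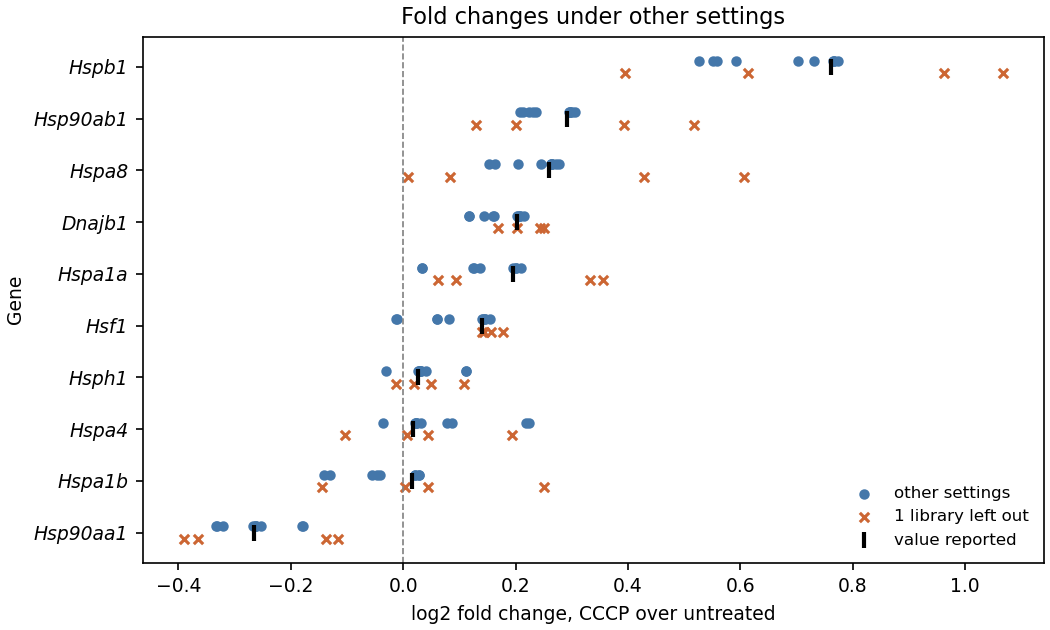
Log2 fold change of each heat shock gene as reported (black bars), under other settings (blue points) and with 1 library left out (orange crosses). Hspb1 stayed between 0.39 and 1.07, while Hsf1, Hsph1, Hspa4 and Hspa1b have points on both sides of 0.

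The labels name stem cells, while the extraction text names whole explants. Kit (47.6 to 63.2 CPM) and Runx1 (8.87 to 20.1 CPM) were counted in every library. So was Ptprc, at 6.85 and 6.81 CPM untreated and 3.64 and 3.39 CPM with CCCP (adjusted p-value 0.2165 in edgeR, 0.0459 in DESeq2). Summed mesenchymal markers stood at 2335 to 3837 CPM, of which Col3a1 alone had 1305 to 2302 CPM. The samples are therefore described as explants, in which fewer cells of a type and less RNA per cell cannot be told apart. Summed CPM of 8 hepatic markers was 836 to 1423 untreated and 6.12 to 67.2 with CCCP, 8 of 8 below, with no marker of any list at 0 in a library. That of 7 skeletal muscle markers was 173 to 267 and 271 to 295 (3 of 7 above), of 6 erythroid markers 345 to 406 and 481 to 562 (2 above), of 6 macrophage markers 117 to 171 and 173 to 178 (2 above), and of 6 neural markers 667 to 690 and 777 to 825 (3 above, 1 below). It was 158 to 166 and 124 to 138 for 8 blood stem and progenitor markers (2 of 7 tested below). Summed endothelial (422 to 549 CPM over all libraries, 2 of 6 below), kidney and gonad (97.5 to 149 CPM, 0 of 6) and mesenchymal levels (1 of 6 above, 1 below) overlapped between groups, and 7 immediate early genes, which respond to handling, summed to 299 to 328 and 335 to 360 CPM (1 of 7 above). Of all genes tested, 24% had CCCP wholly above and 24.8% wholly below, 48.8% together. Among the marker lists and the immediate early genes, only the hepatic (100%) and neural (66.7%) lists exceeded that joint share. The part of these marker differences in the values of Hspb1 and Cryab was not tested.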

How the data were processed

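The authors deposited raw read counts for each gene, made with featureCounts 2.0.3 on exons of the mm10 NCBI RefSeq annotation, per the file headers. Paired-end input was set, but no strand, pair-counting, multi-mapping or overlap option, so each read of a pair counts singly, strand is ignored and shared reads are dropped. No member's exons overlap those of another gene. HISAT2, SAMtools, FastQC and Subread are named in the submitters' processing notes, without roles. The exon length per gene in the deposited files is in bases.

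Groups came from sample titles. The main test was edgeR 4.0.16 in R 4.3.3 (glmQLFit and glmQLFTest, two-sided) on all 19837 genes that passed filterByExpr (minimum count 10, minimum total 15), with TMM scaling, group as the sole term and Benjamini-Hochberg adjustment at 0.05. Standard errors are the log2 fold change over the square root of F, and 95% intervals use the test's degrees of freedom. TMM factors ran from 0.966 to 1.04. A count of 3, the floor, equals 0.0614 to 0.0803 CPM and covers counting error only. No library pair agreed within counting noise (chi-square per degree of freedom at least 34.9). DESeq2 1.42.0 and the alternatives of the closing section were also run, and the scripts were tested on simulated data. Named genes are the 10 members, the 4 highest and 4 lowest log2 fold changes among other cytosolic chaperone genes with a mean of at least 10 CPM, the 6 organelle relatives and the 5 genes nearest to the member of widest range. Members and lists were chosen with earlier results of these data known.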

Additional observations from a re-analysis of the deposited data

How the results depend on the processing

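The direction and call of the members were recomputed under 14 alternatives, 1 of them (genes on more than 1 contig left out) chosen after seeing the data, as were both other lengths for the levels. Of 138 values of the 10 members, 126 kept their direction and 4 passed the threshold, all of Hspb1. The members called numbered 1 (Hspb1) without a filter on low counts (0.77, adjusted p-value 0.0051), with the replicate block (0.73), with block and length trend removal (0.53) and with block and GC trend removal (0.56). Genes called in all were 1107 without the filter, 594 in DESeq2, 2118 with the replicate block, 1561 with block and length trend removal, 1146 with block and GC trend removal, and 10 to 46 with 1 library left out. Other cytosolic chaperone genes called were 4 with the block (Cryab, Cdc37, Hspbp1 and Bag1), 1 with block and length trend removal (Chordc1) and 1 with block and GC trend removal (Pfdn4). With the replicate block Hspa5, Sfn, Alas2, Cldn4 and Wnt6 passed too (adjusted p-values 0.0487, 0.0119, 0.0108, 0.0110 and 0.00142). Same-numbered libraries deviated together (correlation 0.36), though the labels leave the meaning of a number unsaid. The median of the members was 0.11 with total-count scaling, 0.10 with the length trend removed, 0.11 with block and length, 0.11 with GC, 0.11 with block and GC, and 0.11 to 0.17 with 1 library left out.

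Directions turned for Hsf1 with the GC trend removed (-0.0117, and -0.0118 with the block) and for Hspa1b with total-count scaling (-0.0456), length trend removal (-0.0559, blocked -0.0413) and GC trend removal (-0.14, blocked -0.13). Hspa4 and Hsph1 turned with total-count scaling (-0.0367 and -0.0300). Chordc1 stood at 0.10 with the GC trend removed and 0.10 with the block too, Ppid at 0.0881 and 0.0880, and Hsp90b1 at -0.00239 with the length trend removed. With 1 library left out, Hspa1b ranged from -0.15 to 0.25, Hspa4 from -0.10 to 0.19, Hsph1 from -0.0119 to 0.11, Hsp90b1 from -0.0318 to 0.22, Hspa9 from -0.12 to 0.37, Trap1 from -0.0124 to 0.35 and Hspd1 from -0.18 to 0.15. The log2 ratio of Hspa1a and Hspa1b to Hspa8 ranged from -0.63 to 0.30. The Hsp90aa1 share differed by -6.72 percentage points over unshared windows, against -3.82 as reported. The cause was not tested in any of these. With 2 libraries a group, small differences are beyond what these data can resolve.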
